A study of Mus musculus with 6 samples.

Results

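The genes described are those that encode subunits of the mitochondrial respiratory chain, chosen by symbol: Nduf genes of complex I, Sdh genes of complex II, Uqcr genes and Cyc1 of complex III, Cox4 to Cox8 genes of complex IV, and Atp5 genes of complex V. They numbered 79 of the 12393 genes named on the arrays, with 33 genes in complex I, 4 in complex II, 9 in complex III, 16 in complex IV and 17 in complex V. The study compared brains of Swiss albino mouse embryos at E11.5, 1 brain per array. The 3 control brains came from normal mothers, for which the labels give no treatment, and the 3 brains of the diabetic group were malformed brains of embryos whose mothers had been made diabetic with streptozotocin (STZ), a toxin that kills the insulin-producing beta cells of the pancreas. Malformation and maternal diabetes cannot be told apart, and the labels do not say which brains shared a litter, so the p-values measure the spread between these samples only.

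The respiratory chain sits in the inner mitochondrial membrane. Complex I takes electrons from NADH and complex II takes them from succinate, complex III passes them from ubiquinol to cytochrome c, and complex IV hands them to oxygen. Complexes I, III and IV pump protons, and complex V, the ATP synthase, lets the protons flow back and makes ATP. All subunits of complex II and most of those of the other complexes are encoded in the nucleus, while a core set of subunits in complexes I, III, IV and V is encoded in mitochondrial DNA. In the early embryonic brain, dividing progenitors are known to draw heavily on glycolysis, and respiration gains weight as neurons form.

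The values are array signals (linear intensity) in 2 deposited tables of different chip types. Replicates 1 and 2 of both groups are in the first table (MOE430A chip) and replicate 3 of both is in the second (Mouse430A_2 chip), and all differences were taken within a table. Control replicate 1 stood apart, where the probe set for 18S ribosomal RNA read 7894, while the remaining 5 arrays read 101 to 265. The ratio of 3′ to 5′ signal of Gapdh was 0.725 to 0.812 in controls and 0.701 to 0.815 in the diabetic group. Of 46 marker genes of brain and other cell types, 44 were on the arrays and 0 were at a signal of 0 on any array. The summed signal of 7 progenitor markers on the arrays was 9284 to 12297 in controls and 9923 to 12251 in the diabetic group. The sum hides members that went opposite ways, with 5 above 0 in log2 change and 2 below. Groups did not overlap within a table for 1 higher, Sox1 at 0.63, and 1 lower, Fabp7 at -0.62 (background 11.3% higher and 10.6% lower). The sum of 6 neuronal markers was 7796 to 8776 in controls and 5842, 3502 and 10567 on diabetic replicates 1 to 3. In log2 change 0 of the 6 lay above 0, where 52.2% of all tested genes did. This held in the first table only, whereas in the second 4 of the 6 lay above 0, with a median of 0.51. When diabetic replicate 2 was left out, the median was -0.11 and 3 of the 6 lay above 0. For 8 mesenchyme and meninges markers the sums were 13151, 13451 and 15502 in controls and 11239, 10990 and 13607 in the diabetic group, lower within each table, and 0 of the 8 lay above 0 over both tables. By table, 1 of the 8 lay above 0 in the first and 2 in the second, where Lum had 0.65. The muscle sums were also lower within each table, and so were the macrophage sums, though these were almost level in the second table (681.4 in the control, 681.2 in the diabetic array). For the other cell types, the sums in controls and in the diabetic group were 41094 to 50323 and 47970 to 56006 for 6 erythroid markers, 1096 to 2304 and 1447 to 2019 for 6 endothelial markers, 419 to 1477 and 355 to 617 for 6 muscle markers, and 681 to 1154 and 681 to 862 for 5 macrophage markers. The part of cell composition in the results below was not tested, and in whole tissue fewer cells of a type and less RNA per cell cannot be told apart.

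Promoters of the family often held short sequences known as binding sites of regulators of respiratory genes. RefSeq promoters of the GRCm38.p6 build, reaching from 250 bases before to 50 bases after the start, were matched by gene identifier for 64 of the 79 genes. A gene counted if any of its promoters held the letters, and the background of all genes was not limited to those tested on the arrays. The letters GCGCANGCG, a site of nuclear respiratory factor NRF1, were present on either strand in 17 of the 64 (26.6%), against 7.03% of all 27025 genes with a promoter. The letters CCGGAAG, a site of ETS factors such as GABPA, were present in 17 (26.6%) against 9.93%, and AAGATGGCG, a site of YY1, in 6 (9.38%) against 1.64%. The ETS letters end as the YY1 letters begin, so matches to these can overlap. At least 1 of the 3 motifs was found in 33 members (51.6%) and in 16.5% of all genes. The NRF1 letters occurred in 7 of 15 promoters of complex V and 2 of 3 of complex II, and in 5 of 30 of complex I, 2 of 5 of complex III and 1 of 11 of complex IV. A match is a description of the letters and not evidence of binding. Entries were not found for Ndufa2, Ndufb9, Ndufs1, Sdhc, Cyc1, Uqcrb, Uqcrc2, Uqcrq, Cox4i1, Cox4i2, Cox6a2, Cox6c, Cox8c, Atp5a1 and Atp5mpl. The 4 promoters below show each kind of match: Ndufs5 is the member with the largest difference between groups, and Ndufs3, Ndufs7 and Atp5g2 are members whose diabetic arrays lay above the control arrays in both tables. Sequences run 5′ to 3′ along the gene's strand, and capitals mark the match on either strand, to NRF1 in Ndufs5 and Atp5g2, to ETS in Ndufs3 and to YY1 in Ndufs7.
Ndufs5 promoter, chr4:123718137-123718436, minus strand: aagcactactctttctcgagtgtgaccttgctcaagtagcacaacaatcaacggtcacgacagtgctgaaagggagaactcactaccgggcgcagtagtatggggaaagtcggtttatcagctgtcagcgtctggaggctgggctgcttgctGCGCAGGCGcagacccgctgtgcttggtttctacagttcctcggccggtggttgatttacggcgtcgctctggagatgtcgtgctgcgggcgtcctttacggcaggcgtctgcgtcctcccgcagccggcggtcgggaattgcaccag
Ndufs3 promoter, chr2:90904672-90904971, minus strand: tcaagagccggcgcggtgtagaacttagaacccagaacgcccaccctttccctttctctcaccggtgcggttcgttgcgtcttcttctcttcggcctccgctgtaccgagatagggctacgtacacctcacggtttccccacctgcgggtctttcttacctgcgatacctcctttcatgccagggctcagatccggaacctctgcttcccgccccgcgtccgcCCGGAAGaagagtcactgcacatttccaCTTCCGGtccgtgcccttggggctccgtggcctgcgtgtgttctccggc
Ndufs7 promoter, chr10:80249199-80249498, plus strand: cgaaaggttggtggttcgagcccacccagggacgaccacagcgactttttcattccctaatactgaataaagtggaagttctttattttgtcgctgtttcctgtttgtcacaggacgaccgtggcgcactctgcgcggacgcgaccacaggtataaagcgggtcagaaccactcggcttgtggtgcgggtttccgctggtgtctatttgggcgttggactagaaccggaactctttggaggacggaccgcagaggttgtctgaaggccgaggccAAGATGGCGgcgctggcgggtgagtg
Atp5g2 promoter, chr15:102670998-102671297, minus strand: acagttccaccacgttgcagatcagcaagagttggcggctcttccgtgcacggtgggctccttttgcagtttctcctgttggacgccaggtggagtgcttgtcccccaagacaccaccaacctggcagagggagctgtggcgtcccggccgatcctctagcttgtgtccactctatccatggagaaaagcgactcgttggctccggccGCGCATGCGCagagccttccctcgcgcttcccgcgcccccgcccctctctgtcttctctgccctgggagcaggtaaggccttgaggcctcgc

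The main comparison asked whether transcripts of the respiratory chain differ between brains of the diabetic and control groups, complex by complex. No respiratory chain gene differed beyond the array spread after adjustment, and apart from Ndufs5 the differences were small. Of the 79 genes, 77 had a mean signal of at least 100 and were tested. The 2 left out were Cox8b and Cox7a1, muscle isoforms of complex IV, with mean signals of 18.0 and 41.4, and the tested members nearest to the limit were Cox6a2 at 108 and Cox4i2 at 145. The median log2 change of the 77 members, diabetic minus control on the log2(signal + 32) scale, was 0.076, against 0.012 over all 8627 genes tested. Above 0 lay 51 members and below 0 lay 26, a share of 66.2% above 0 where 52.2% of all tested genes were. In limma, adjusted by Benjamini-Hochberg over all genes tested, 0 members passed 0.05, as did 0 of all genes (background 0%), and the smallest adjusted p among the members was 0.532. At an unadjusted p under 0.05 limma counted 2 members (2.6%), both higher, against 3.73% of all genes higher and 3.91% lower. The diabetic arrays lay wholly above the control arrays of their own table for 12 members (15.6%; background 11.3%) and wholly below for 3 (3.9%; background 10.6%).

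The precision bounds what could have been missed. The standard errors of the 76 members other than Ndufs5 ran from 0.147 to 0.261, and their log2 changes from -0.28 for Cox6c to 0.41 for Sdhc. Each of the 76 had a 95% interval from limma, taken 1 gene at a time, that lay inside -1 to 1, and for 75 of them it included 0. The lowest bound was -0.64, for Cox6c, and the highest 0.84, for Uqcrc2. A halving or doubling of signal on this scale was thus outside the interval for each of these 76 genes.

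**Figure D1:**
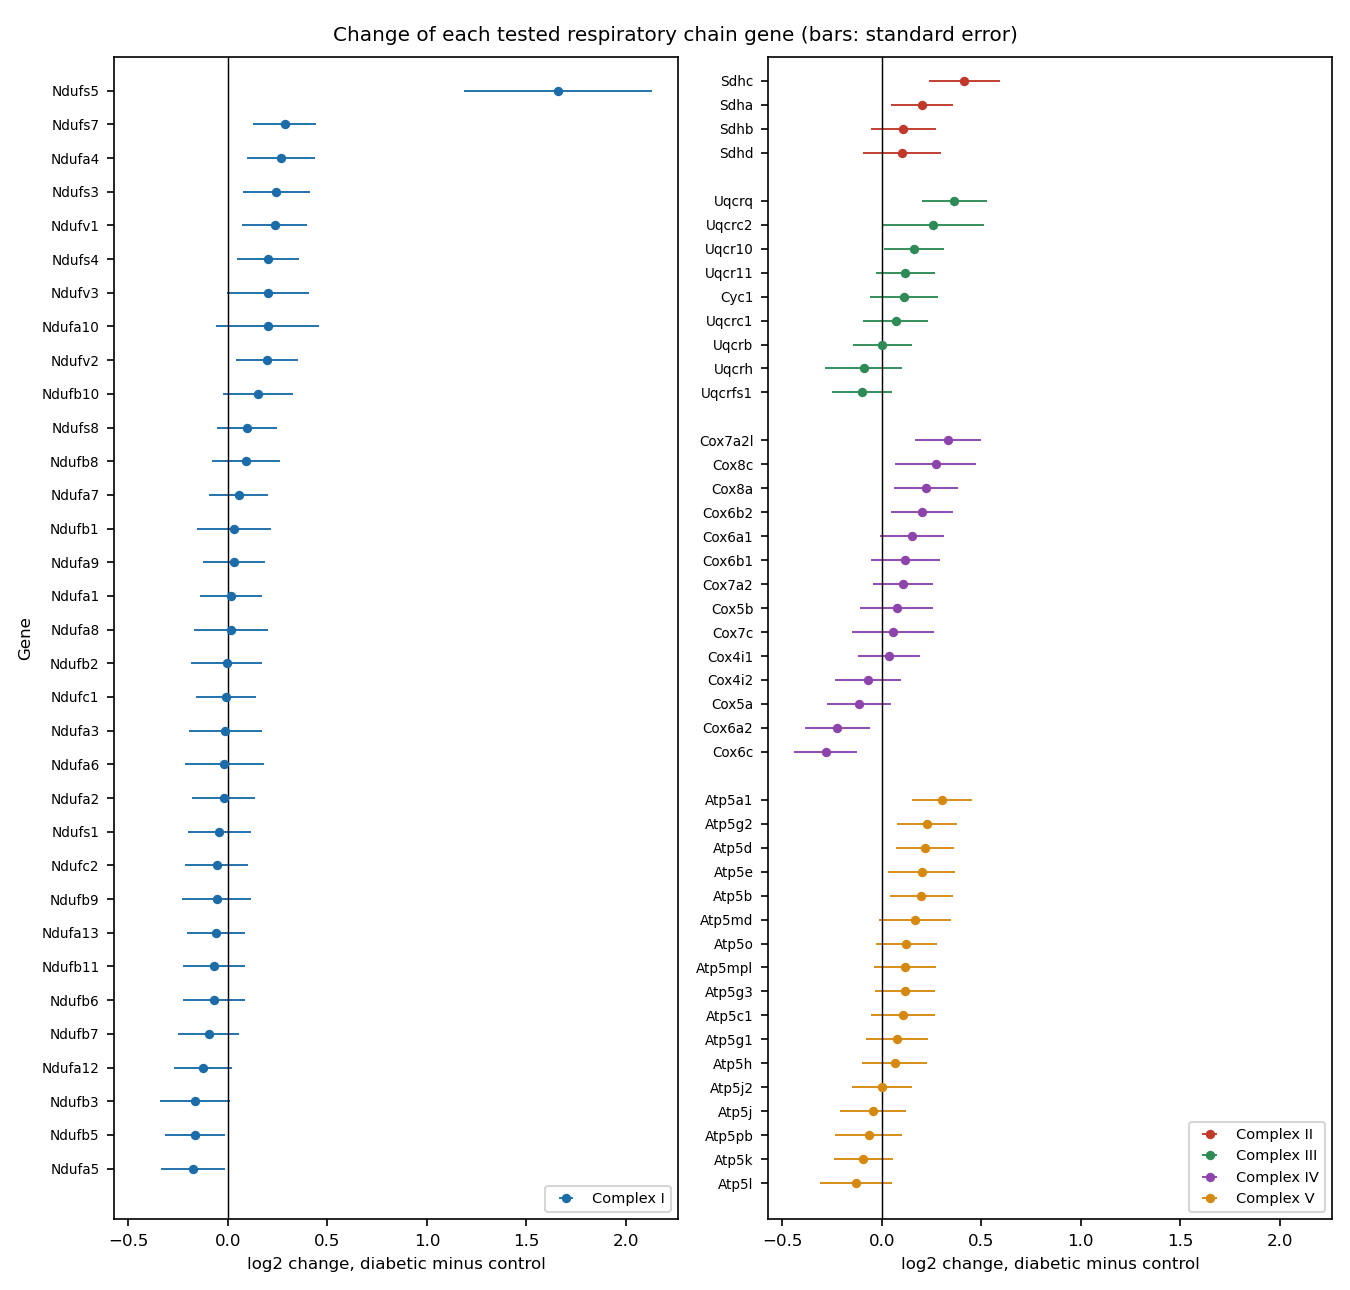
Log2 change (diabetic minus control) of each of the 77 tested genes, with complex I on the left and complexes II to V on the right; points are limma estimates from 3 arrays per group and bars are standard errors. Ndufs5 stands alone at 1.66, and all other genes lie between -0.28 and 0.41.

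Complex I transcripts were divided. Among 33 tested genes 17 lay above 0 and 16 below, with a median log2 change of 0.014, and the groups did not overlap for 2 higher and 2 lower members (background 11.3% higher and 10.6% lower). The matrix arm, which holds the flavin and the iron-sulfur clusters that carry electrons from NADH to ubiquinone, had a median of 0.076 with 9 of 14 genes above 0. The membrane arm, of which the genes here encode subunits that surround the proton pumps, had a median of -0.011 with 7 of 18 above 0. Without control replicate 1 the membrane arm had -0.093 with 5 of 18 above 0, and without control replicate 2 it had 0.020 with 9 of 18. The difference between the arms was not tested, and with all probe sets of a gene averaged the medians were 0.030 and 0.0088, with 8 of 14 and 11 of 18 genes above 0.

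In the matrix arm, Ndufs7, which holds the last iron-sulfur cluster before ubiquinone, had signals of 1516, 1709 and 1219 in the controls, listed here and below in replicate order, and 1714, 2067 and 1631 in the diabetic group. Each diabetic array lay above the controls of its table, by little for diabetic replicate 1. The log2 change was 0.28 ± 0.16 (SE, 3 arrays per group), with a limma adjusted p of 0.69. Ndufs3, a core subunit of the ubiquinone-binding module, had 1493, 1928 and 1924 in controls and 1938, 2238 and 2138 in the diabetic group, again with no overlap within a table, and diabetic replicate 1 stood almost level with control replicate 2. Its log2 change was 0.24 ± 0.17 (SE, 3 arrays per group). Ndufv1, the subunit that binds NADH and the flavin, had 2070, 1878 and 1499 in controls against 1956, 2332 and 2098, a log2 change of 0.23 ± 0.16, and here the groups of the first table overlapped. Its flavoprotein partner Ndufv2 had 0.20 ± 0.16, but its other probe sets, at mean signals of 2270 and 1860, had -0.14 and -0.34.

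The lower side of complex I held genes of both arms. Ndufb5, a membrane arm subunit, had signals of 3090, 3026 and 3262 in controls and 2647, 2490 and 3259 in the diabetic group, so that the first table carried its log2 change of -0.17 ± 0.15 (SE, 3 arrays per group) and the second showed next to none. Ndufa12, an accessory subunit of the matrix arm, had -0.12 ± 0.15, with values below the controls in both tables. Ndufa5, an accessory subunit of the matrix arm, had the lowest change of the complex at -0.17 ± 0.16, and its groups overlapped. Ndufb5, Ndufa12 and Ndufa5 lay outside the rule for named genes and were chosen after their values were seen. Ndufa4, named for complex I but known as a subunit of complex IV, had signals of 4372, 3835 and 2256 in controls and 4075, 4762 and 3407 in the diabetic group. Its log2 change of 0.27 ± 0.17 came from table values of 0.10 and 0.59.

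Ndufs5, a small subunit on the outer face of the membrane arm, differed from all other members. Its signals were 250 and 155 on control replicates 1 and 2 and 1764 on control replicate 3, against 1344, 1392 and 1493 in the diabetic group. The 2 control arrays of the first table were low, and the other 4 arrays, the third control among them, lay between 1344 and 1764. In the first table the diabetic arrays were 6.10-fold higher on the log2(signal + 32) scale, a log2 change of 2.61, whereas in the second table it was -0.24. Over all tested genes, 1 gene, Ndufs5 itself, had a first-table change this large on the higher side and 1 had it on the lower side. Over both tables the change was 1.66 ± 0.47 (SE, 3 arrays per group), with an unadjusted p of 0.0061 and an adjusted p of 0.532 in limma. Leaving out 1 array at a time gave values between 1.22 and 2.61, and without control replicate 1 it was 1.56. In the first table alone its adjusted p in limma was 0.055, the smallest of all genes tested there. A second probe set, whose annotation lists Ndufs5 together with its pseudogene Ndufs5-ps, had signals of 838, 741 and 2291 in controls and 1196, 1151 and 1963 in the diabetic group. Its sign was the same in each table and its size smaller, with log2 changes of 0.56 in the first and -0.22 in the second table, and transcripts of gene and pseudogene cannot be told apart there.

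**Figure D2:**
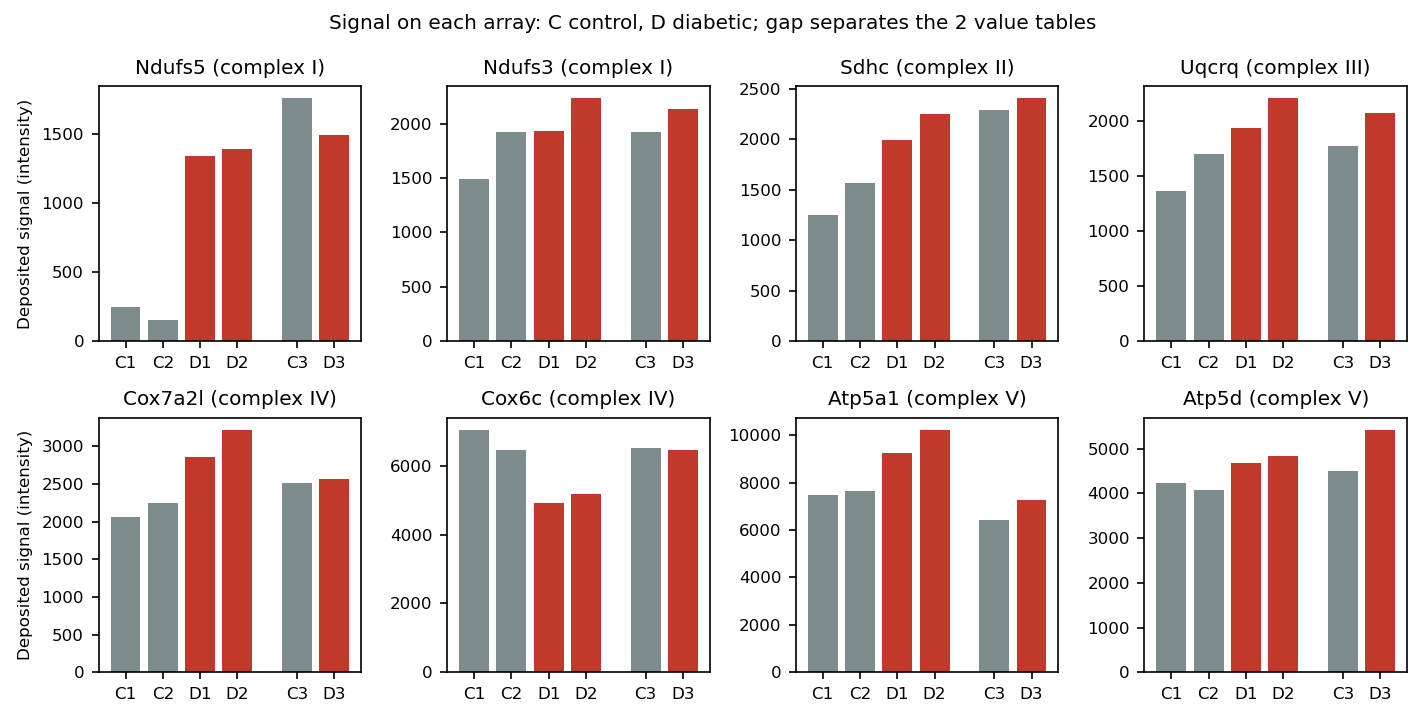
Deposited signal (linear intensity) on each array for 8 respiratory chain genes, with controls in grey and diabetic arrays in red; C1, C2, D1 and D2 are the first value table and C3 and D3 the second. Ndufs5 is low on C1 (250) and C2 (155) only, and the mean change of each other gene shown is under 1 on the log2 scale.

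Complex II, succinate dehydrogenase, was the complex with all tested members above 0, 4 of 4, at a median log2 change of 0.15. Sdhc, which anchors the enzyme in the membrane and helps bind haem, had signals of 1253, 1566 and 2288 in controls and 1991, 2253 and 2409 in the diabetic group. Diabetic arrays lay above controls in both tables, clearly in the first and narrowly in the second. The log2 change was 0.41 ± 0.18 (SE, 3 arrays per group), with first-table and second-table values of 0.59 and 0.073, an unadjusted p of 0.044 and an adjusted p of 0.65 in limma. Its other probe set, with a mean signal of 1804 beside 1959, had -0.29, with -0.26 and -0.35 in the tables, so the probe sets of Sdhc disagree in direction.

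Sdha, the flavoprotein that oxidises succinate, had 2220, 2227 and 1961 in controls against 2231, 2667 and 2488. The groups did not overlap in either table, although diabetic replicate 1 equalled control replicate 2 to within a few units, and the log2 change was 0.20 ± 0.16 (SE, 3 arrays per group). Sdhb, the iron-sulfur subunit, had 0.11 ± 0.16 with overlapping arrays. Sdhd, the second membrane anchor, had 0.10 ± 0.20 and overlapped too, and its weaker probe set had -0.31. With the probe sets of each gene averaged, 3 of 4 genes lay above 0 and the median was 0.085, and the same 3 of 4 with a median of 0.11 were left without control replicate 1. The median was 0.25, with 4 of 4 above 0, without control replicate 2.

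In complex III, 7 of 9 genes lay above 0 and the median change was 0.11 (log2), and 2 members, Uqcrq and Uqcr11, were higher without overlap (background 11.3%). Uqcrq, a small subunit next to cytochrome b, had signals of 1357, 1694 and 1773 in controls and 1931, 2205 and 2072 in the diabetic group. Every diabetic array exceeded the controls of its own table. The log2 change was 0.36 ± 0.16 (SE, 3 arrays per group), with an unadjusted p of 0.052 and an adjusted p of 0.654 in limma, and the tables gave 0.44 and 0.22. Its 2 other probe sets above the signal limit had 0.51 and 0.12.

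Uqcr11, another small subunit, had 1532, 1517 and 1848 in controls against 1630, 1756 and 1928, a log2 change of 0.12 ± 0.15. Uqcr10 had 0.16 ± 0.15. Uqcrc2, a core protein of the matrix side, had 1214, 1644 and 3460 in controls and 1877, 2622 and 2427 in the diabetic group, so that it was higher in the first table by 0.64 and lower in the second, at -0.51. Its other probe set, with a mean signal of 2092 beside 2207, was higher in both tables, by 0.099 and 0.24. Of the proteins that carry the electrons, cytochrome c1 (Cyc1, chosen after its value was seen) had 0.11 ± 0.17 and the Rieske iron-sulfur protein (Uqcrfs1) -0.099 ± 0.15, both with overlapping groups.

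In complex IV, cytochrome c oxidase, 10 of 14 tested genes lay above 0 and the median change was 0.090 (log2). The median was -0.021, with 6 of 14 above 0, without control replicate 1 and 0.029, with 8 of 14, without diabetic replicate 2. It was 0.18, with 11 of 14, without control replicate 2 and 0.16, with 10 of 14, without diabetic replicate 1. The groups did not overlap for Cox7a2l and Cox6b2 on the higher side (background 11.3%) and for Cox6c on the lower (background 10.6%). Cox7a2l, which joins complex IV to complex III in supercomplexes, had signals of 2063, 2251 and 2513 in controls and 2854, 3220 and 2565 in the diabetic group. The gap was wide in the first table and narrow in the second. The log2 change was 0.33 ± 0.17 (SE, 3 arrays per group), with an adjusted p of 0.661 in limma, table values of 0.49 and 0.029, and its 2 other probe sets had 0.21 and 0.19.

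Cox6c, a single-span membrane subunit, was the lowest of all tested members. Its signals were 7045, 6468 and 6518 in controls and 4918, 5182 and 6447 in the diabetic group. Both diabetic arrays of the first table were well below their controls, and that of the second was almost level. The log2 change was -0.28 ± 0.16 (SE, 3 arrays per group), with an adjusted p of 0.69 in limma, and its other probe set had -0.24, with -0.21 and -0.29 in the tables.

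Several subunits of complex IV exist as isoforms, a common one and one typical of certain tissues. Over 9 common isoforms the median was 0.075, and over 4 tested tissue isoforms 0.067. The medians were -0.027 and -0.024 without control replicate 1, and 0.17 and 0.13 without control replicate 2. Of the common isoforms in these families, Cox4i1 had a log2 change of 0.035 ± 0.16, Cox6a1 0.15 ± 0.16, Cox6b1 0.12 ± 0.17, Cox7a2 0.11 ± 0.15 (-0.028 with quantile normalization) and Cox8a 0.22 ± 0.16. Among the tissue isoforms, Cox4i2, the lung isoform that is known to respond to oxygen, had signals of 201, 239 and 24.7 in controls and 183, 187 and 33.6 in the diabetic group. It was lower in the first table and higher in the second, and its change was -0.069 ± 0.16. Cox6a2, the heart and muscle isoform, had 129, 180 and 46.8 in controls against 134, 123 and 33.8, a log2 change of -0.22 ± 0.16 with overlapping arrays. The isoforms known from testis, Cox6b2 and Cox8c, had 0.20 ± 0.16 and 0.27 ± 0.21. Cox6b2 signals were 305, 304 and 337 in controls and 309, 362 and 443 in the diabetic group, with no overlap within a table. Cox7a1, a muscle isoform, had 58.0, 38.5 and 32.8 in controls and 27.0, 34.4 and 57.9 in the diabetic group, and Cox8b had 9.38, 26.2 and 2.67 against 17.4, 38.7 and 13.6. Both lie under the signal limit and were not tested.

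Complex V had 13 of 17 genes above 0 and a median log2 change of 0.11, and 4 genes, Atp5a1, Atp5b, Atp5d and Atp5g2, were higher without overlap (background 11.3%). The F1 head, the rotary motor that makes ATP, held 3 of these 4, and all 5 of its genes lay above 0, with a median of 0.20. Atp5a1, the alpha subunit of the head, had signals of 7461, 7624 and 6402 in controls and 9254, 10227 and 7257 in the diabetic group. All diabetic arrays lay above the controls of their table. The log2 change was 0.30 ± 0.15 (SE, 3 arrays per group), with an adjusted p of 0.661 in limma, but its other probe sets, at mean signals of 4134 and 170, had -0.034 and -0.32, and the average of the 3 was -0.017.

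Atp5d, the delta subunit of the central stalk, had 4239, 4077 and 4500 in controls and 4666, 4834 and 5422 in the diabetic group. The order was the same in both tables, with log2 changes of 0.19 and 0.27, and the estimate was 0.22 ± 0.15 (SE, 3 arrays per group). Atp5b, the catalytic beta subunit, had 6485, 7927 and 8550 against 8374, 8704 and 9124, a log2 change of 0.20 ± 0.16. Atp5e and Atp5c1, the epsilon and gamma subunits, had 0.20 ± 0.17 and 0.11 ± 0.16 with overlapping groups, and Atp5c1 was chosen after its value was seen.

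The c ring turns as protons pass, and its subunit is made from 3 genes that differ in their import sequences but give the same mature protein. Atp5g2 had signals of 3942, 4085 and 3990 in controls and 4326, 4955 and 4828 in the diabetic group, each diabetic array above its controls. Its log2 change was 0.23 ± 0.15 (SE, 3 arrays per group), and its second probe set, of mean signal 130, had -0.17. Atp5g1 had 2049, 2429 and 1980 against 2288, 2466 and 2051, a change of 0.076 ± 0.15 with overlap. Atp5g3 had 9515, 9366 and 9654 against 10288, 11143 and 9518, a change of 0.11 ± 0.15 that became -0.031 with quantile normalization. The peripheral stalk, which holds the head still, had a median of 0.0095 over 4 genes, 2 on each side of 0. The 5 small membrane subunits had a median of 0.00048, from -0.13 for Atp5l to 0.17 for Atp5md, both chosen after their values were seen.

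The diabetic arrays differed among themselves. As medians over the 77 members, the diabetic arrays exceeded the mean of their table's controls by 0.040, 0.15 and 0.029, with 44, 52 and 40 members higher, while control replicates 1 and 2 lay at -0.062 and 0.062. Control replicate 2 thus exceeded diabetic replicate 1 in this summary. For complex IV the diabetic values were 0.031, 0.24 and 0.032 with controls at -0.13 and 0.13, and for complex II they were 0.13, 0.24 and 0.18 with controls at -0.15 and 0.15. In complex V, diabetic replicates lay at 0.11, 0.18 and 0.093 and controls at -0.016 and 0.016. This was the complex in which the medians of diabetic replicates 1 and 2 both lay above those of control replicates 1 and 2. Diabetic replicate 3 has no such range, since the single control of its table defines 0. Control replicate 1, the array with the high 18S signal, was the lower control in all 5 complexes. Without it, the member median was 0.010 with 42 of 77 above 0, and the medians of complexes I to V were -0.046, 0.11, 0.056, -0.021 and 0.10. Without diabetic replicate 2, the array with the lowest sum of neuronal markers, the member median was 0.042 with 47 above 0, and the medians of complexes I to V were -0.0037, 0.14, 0.057, 0.029 and 0.062. The member median was 0.12, with 56 of 77 above 0, without control replicate 2 and 0.068, with 53, without diabetic replicate 1.

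**Figure D3:**
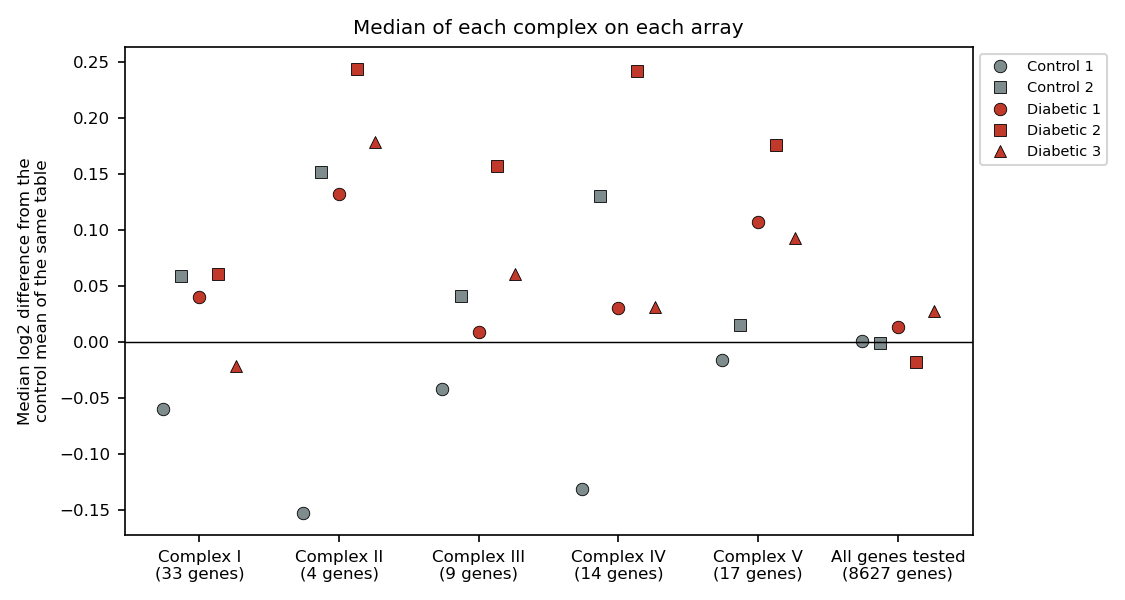
Median log2 difference from the control mean of the same value table for the tested genes of each complex and for all 8627 genes tested, 1 point per array; control replicate 3 defines 0 in the second table and is not drawn. Complex V has its diabetic points at 0.11, 0.18 and 0.093 and its controls at -0.016 and 0.016, while in complexes I to IV the groups of the first table overlap.

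The changes were also compared between the 2 tables. The first and second tables gave member medians of 0.081 and 0.029, with 53 and 40 of 77 members above 0. In 48 of 77 members (62.3%) both tables had the same sign, where 51.5% of all genes did. As a description across genes, which are not independent replicates, the changes in the tables had a Pearson correlation of -0.14 over the 77 members and -0.039 without Ndufs5. Over all genes tested it was 0.039. By complex, the sign was shared by 18 of 33 genes in complex I, 3 of 4 in complex II, 5 of 9 in complex III, 9 of 14 in complex IV and 13 of 17 in complex V.

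**Figure D4:**
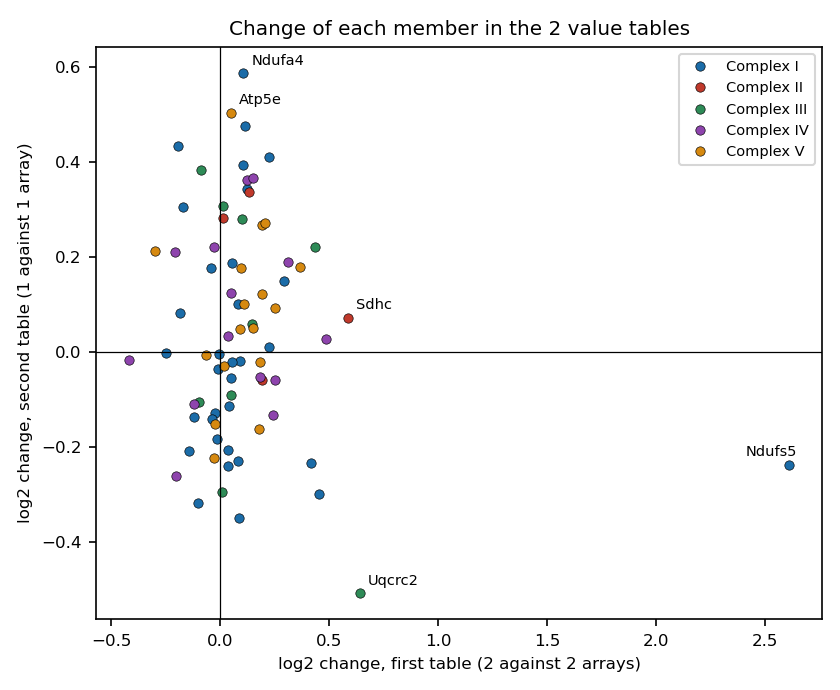
Log2 change of each of the 77 members in the first value table (horizontal axis, 2 diabetic against 2 control arrays) and in the second (vertical axis, 1 against 1), coloured by complex. Ndufs5 lies at 2.61 and -0.24, Uqcrc2 at 0.64 and -0.51, and the remaining genes form a cloud with 48 of 77 members sharing a sign.

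Other genes that build or feed the chain gave no adjusted call either. Of 33 tested assembly factors, which insert cofactors and join subunits, 21 lay above 0 and the median was 0.051 (0.018 without control replicate 1); at an unadjusted p under 0.05, 2 were higher (background 3.73%) and 1 lower (background 3.91%), and 0 passed the adjustment in limma. Uqcc1, a factor for complex III, had signals of 312, 289 and 239 in controls and 412, 391 and 350 in the diabetic group, a log2 change of 0.42 ± 0.15 (SE, 3 arrays per group). Coa5, a factor for complex IV, had 0.47 ± 0.17. Cox20, which handles a mitochondrially made subunit of complex IV, had 1393, 1238 and 1515 in controls against 918, 1016 and 1180, a change of -0.40 ± 0.15. For all 3, which were named for the smallest p of the list, the diabetic arrays lay to 1 side of the controls in both tables. Over the 33 factors, 5 were higher without overlap (background 11.3%) and 2 lower (background 10.6%).

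Among 17 tested genes of ubiquinone synthesis, electron transfer and nucleotide exchange, 11 lay above 0 with a median of 0.084. That median was 0.013 without diabetic replicate 2, 0.047 without control replicate 1 and at most 0.14 with any single array left out. Coq6 and Coq5, enzymes of ubiquinone synthesis, had log2 changes of opposite sign, 0.52 ± 0.21 and -0.40 ± 0.17, and Etfb, which brings electrons from fat oxidation, had 0.30 ± 0.16. Cytochrome c (Cycs) had -0.23 ± 0.17 and the adenine nucleotide carrier Slc25a5 0.26 ± 0.16, both chosen after their values were seen. The tricarboxylic acid cycle, which makes the NADH and succinate, had a median of 0.11 over 12 genes, 8 above 0. That median was 0.013 without control replicate 1, and in the second table it was 0.00064 with 6 of 12 above 0. Suclg2 and Suclg1, subunits of the enzyme that makes succinate, had 0.36 ± 0.23 and 0.30 ± 0.23, with 0.55 and 0.54 in the first table but -0.033 and -0.18 in the second. Idh3g had 0.20 ± 0.15. The pyruvate dehydrogenase group had a median of 0.13 with 5 of 6 genes above 0. Its median was -0.022, with 2 of 6, without diabetic replicate 2 and at most 0.20 with any single array left out. Pdk1, a kinase that shuts the enzyme off, had 0.38 ± 0.30, and its diabetic arrays lay at -0.32, 1.08 and 0.38 from their controls. Higd1a, a small protein that binds the chain in low oxygen, had 0.36 ± 0.19, and its table values were 0.54 and -0.0015. The median of its list of 4 genes was 0.069, with 2 above 0. Of these 4 lists, 0 genes passed the adjustment in limma, and at an unadjusted p under 0.05 there were 2, Coq6 and Coq5 (background 7.64% in either direction).

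Of 18 tested regulators of mitochondrial genes, 7 lay above 0 and 11 below, where 52.2% of all tested genes lay above. The median was -0.12, but -0.045 without control replicate 1 and -0.053 without diabetic replicate 2. Its lowest value with any single array left out was -0.17. In limma 0 passed the adjustment, and at an unadjusted p under 0.05 there were 1 higher (background 3.73%) and 1 lower (background 3.91%). Mterf3, a repressor of mitochondrial transcription, had signals of 623, 625 and 1504 in controls and 440, 349 and 1187 in the diabetic group, a log2 change of -0.53 ± 0.16 (SE, 3 arrays per group), with an unadjusted p of 0.0093 and an adjusted p of 0.576. Nrf1, whose site was searched in the promoters above, had 361, 425 and 247 in controls and 480, 484 and 361 in the diabetic group, a change of 0.35 ± 0.15, with each diabetic array above its controls. Ppargc1b, a coactivator of respiratory genes, had -0.54 ± 0.29 with overlap. The only mitochondrially encoded subunit found, ND5 of complex I, had signals of 4627, 8592 and 4290 in controls and 9099, 4492 and 3905 in the diabetic group, spread widely within each group, and a change of -0.032 ± 0.29.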

How the data were processed

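Signals of 6 arrays (3 control, 3 diabetic) were read from 2 deposited tables of linear intensity, 1 value per probe set, which the authors made with GCOS per the submitters' processing notes (no version or settings stated there). The first table was run on the MOE430A chip and the second on Mouse430A_2, with other wash and scanner settings, per the file headers. Of 22690 probe sets, 64 were array controls. Genes were named from probe sets with 1 annotated gene; the members had 148, and 7 more that list a member with other genes were not used. Each array was set to a 2% trimmed mean of 500, a change of 0.0363% or less, and turned into log2(signal + 32), which understates changes of low signals. The probe set of highest mean log2 signal stood for its gene, and the 8627 genes whose mean signal reached 100 entered the test.

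The test was a two-sided moderated test, lmFit with eBayes from limma 3.58.1 (R 4.3.3), with the table as a block and Benjamini-Hochberg adjustment over all genes tested at 0.05. The fit had 3 residual and 6.48 prior degrees of freedom, and was tested on simulated data with 200 changed genes. At log2 changes of 1 and 2 it recovered 95.5% and 100% of them, and 8.17% and 6.54% of its calls were false. The simulated noise was normal and independent for each gene, at its moderated spread, and each change was equal in both tables. These rates therefore need not hold for the real data, where the tables often disagreed. Smaller changes, such as those of the members other than Ndufs5, were not simulated. Same-numbered arrays deviated together from their group means (correlations of 0.449, 0.43 and 0.744), but both arrays numbered 3 form the second table, and within the first table the correlation was -0.0091. For arrays no counting depth exists, and their number limits the precision. Named genes were all members of complex II, the 5 of smallest p in each other complex, the isoform families, members without overlap and p under 0.05, members named for probe sets of opposite sign, and up to 3 of smallest p from each other list; others are marked as chosen later. Members, lists and rules were chosen with earlier results of these data known. Alternatives were scaling, pseudocount, signal limit, probe set choice, block, single tables, array weights and leaving out each array. The motif letters were set after the promoters had been searched with NRF1 and YY1 motifs 1 base longer, which matched fewer promoters of members and of all genes.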

Additional observations from a re-analysis of the deposited data

How the results depend on the processing

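Under every alternative fitted, 0 of all genes and 0 members passed the adjustment in limma. The smallest adjusted p was 0.055, for Ndufs5 in the first table alone. At an unadjusted p under 0.05, 659 genes were counted; the count was 100 without a block and 414 without control replicate 1. Members at that level numbered 0 to 5, against 2. With array weights the median log2 change was 0.019 over all members, with 44 of 77 above 0, and -0.022, 0.12, 0.018, 0.017 and 0.090 in complexes I to V. That of complex V was 0.062 with all probe sets of a gene averaged. As single arrays were left out, the medians ran from -0.046 to 0.086 in complex I and from 0.062 to 0.11 in complex V, and members above 0 from 42 to 56. Leaving out either array of the second table gives the first table alone. Of the 32 named and tested members, 21 kept their sign in each alternative that held them, though a change of block cannot alter a sign here. The others were Atp5a1, Atp5g3, Cox4i1, Cox4i2, Cox6a1, Cox6b1, Cox7a2, Ndufs5, Sdhb, Sdhd and Uqcrc2. Of 41 members with several probe sets above the signal limit, 16 had probe sets of opposite sign.

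With the replicate number as a block, 0 genes passed the adjustment in limma and 627 had an unadjusted p under 0.05, so the block changed no call. Tables and replicate numbers hold both groups in equal numbers, so the choice of block cannot alter a log2 change. The 51 members above 0 were thus the same by design.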
